A study of Bos taurus with 48 samples.

Results

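Back muscle of cattle (longissimus thoracis et lumborum, LTL) was compared between 7 and 12 months of age, on the 8 arrays that carried these ages out of the 48 arrays of the series. Each 2-colour Agilent array held RNA of 1 Piedmontese × Hereford and 1 Wagyu × Hereford animal, and the crosses exchanged dyes between arrays, so that each cross was in Cy3 on 2 arrays and in Cy5 on 2 arrays at either age. Piedmontese cattle are known for heavy muscling and Wagyu cattle for fat within the muscle. The 7-month arrays held 8 animals (GP130, GP201, GP273 and GP285 of the Piedmontese cross, and GW169, GW179, GW212 and GW245 of the Wagyu cross). The 12-month arrays held 6 animals: GP112, GP130, GP201 and GP285 of the Piedmontese cross, 1 array each, and of the Wagyu cross only GW169, on 3 arrays, and GW179, on 1 array. The same code occurred at both ages for 5 animals (GP130, GP201, GP285, GW169 and GW179). RNA came from frozen biopsies of whole muscle, so fewer cells of a type and less RNA per cell cannot be told apart. The labels give no sex and no diet for these animals.

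Growing muscle lengthens and thickens existing fibres rather than adding many new ones. Around the fibres lies connective tissue made by fibroblasts, whose fibrillar collagens are synthesised fast in young animals and are then cross-linked and turned over slowly. Fat cells between the fibres fill with lipid made from acetate and glucose through the enzymes of fatty acid synthesis.

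Levels are given as log2 intensity after background correction and normalization, as the mean of both channels of an array, and the difference is the 12-month minus the 7-month level, so that a difference of 1 means an intensity 2 times as high. Levels of different genes come from different probes and were not compared. A gene was called when its difference passed an adjusted p of 0.05 in limma, fitted to the 16 channels with array and animal as random terms. Of 13670 genes tested, 1273 were called (9.31%), 700 higher (5.12%) and 573 lower (4.19%) at 12 months, and 1251 of the 1273 moved the same way on all 4 slides. The median difference of all genes was 0.003. The fit treats the 3 arrays of GW169 at 12 months as sharing an animal but not a biopsy. With array and biopsy (an animal at 1 age) as the random terms instead, 480 genes were called, and that second adjusted p is given below as "with the biopsy term". That second fit has no animal term, so it also drops the pairing of animals measured at both ages. With array, animal and biopsy together 1097 genes were called, and with array alone 736. Leaving out GW169 leaves the Wagyu cross at 12 months with GW179 on 1 array. The part of GW169 and that of fewer samples therefore cannot be told apart, which limits every count and p-value given without GW169. Without GW169, 179 genes were called. With each channel centred on its median in place of loess and quantile normalization no gene was called by limma, 147 had an unadjusted p under 0.05, and the median of all genes was -0.09. Every slide held 7 months at array position 2 and 12 months at position 3, so age and array position cannot be told apart.

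The 16 channels had between 57.9% and 73.6% of their spots well above background, and the median signal was 1.98 to 3.60 times the background. The 7-month array of slide 1 (GW245 and GP273) stood apart from the other 7: its score on the first principal component, which held 46.0% of the variance, was -37.1 against -10.9 to 17.2, and its median correlation with the others was 0.979 against 0.989 to 0.994. Neither animal of this array was measured at 12 months, and 1639 genes were called without it. Skeletal muscle was present as labelled: the 9 measured fibre markers, among them the actin ACTA1, the fast and slow myosins MYH1 and MYH7, myoglobin (MB), the troponins TNNT3 and TNNT1, the light chain MYL11 and desmin (DES), were above background in every channel and by limma none was called or had an unadjusted p under 0.05. Their differences lay between -0.15 for TNNT3 and 0.20 for DES (limma adjusted p = 0.37 and 0.33). With median-centred channels all 9 differences were negative, with a median of -0.36.

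The largest changes are described first. The gene with the largest fall was OTUD1, which encodes a deubiquitinating enzyme. Its level was 11.32, 11.37, 11.97 and 11.93 at 7 months and 9.32, 9.03, 8.82 and 8.59 at 12 months on slides 1 to 4. The ages did not overlap, and OTUD1 fell by 2.80 (SE 0.30, 6.98-fold) with an adjusted p of 0.00017 in limma and of 0.0014 with the biopsy term. It was lower at 12 months in each of the 5 animals measured at both ages, with differences of -1.45 in GP130 and of -3.26 to -3.15 in the others. TP53INP2, a protein of autophagosomes and a regulator of transcription, lay at 12.58, 12.34, 12.48 and 12.41 at 7 months and at 10.83, 11.21, 10.51 and 11.03 at 12 months. The groups were separate, with a difference of -1.55 (SE 0.14, limma adjusted p = 9.5e-05). SPOCK2, a proteoglycan of the extracellular matrix, lay at 12.82, 12.65, 13.48 and 11.02 and then at 10.22, 10.72, 10.55 and 10.46, so the 7-month array of slide 4 was closest to the later age (difference -2.07, SE 0.41, limma adjusted p = 0.0077). SYNPO, which encodes an actin-associated protein, fell by 1.38 (SE 0.18, limma adjusted p = 0.00074). Another 3 falls had wide spreads among the 7-month arrays and did not pass with the biopsy term: the monocarboxylate transporter SLC16A6 (-1.55, adjusted p = 0.032 and 0.11), the amino acid transporter SLC43A2 (-1.49, 0.030 and 0.069) and the muscle methyltransferase METTL21E (-1.36, 0.027 and 0.11). The same held for 2 ESTs that the array describes as similar to human FOXO1A, a transcription factor of the fasting response (AW437583, -1.44, adjusted p = 0.039 and 0.087), and to the SNF1-like kinase SNF1LK (CB435807, -1.53, 0.023 and 0.098).

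**Figure D1:**
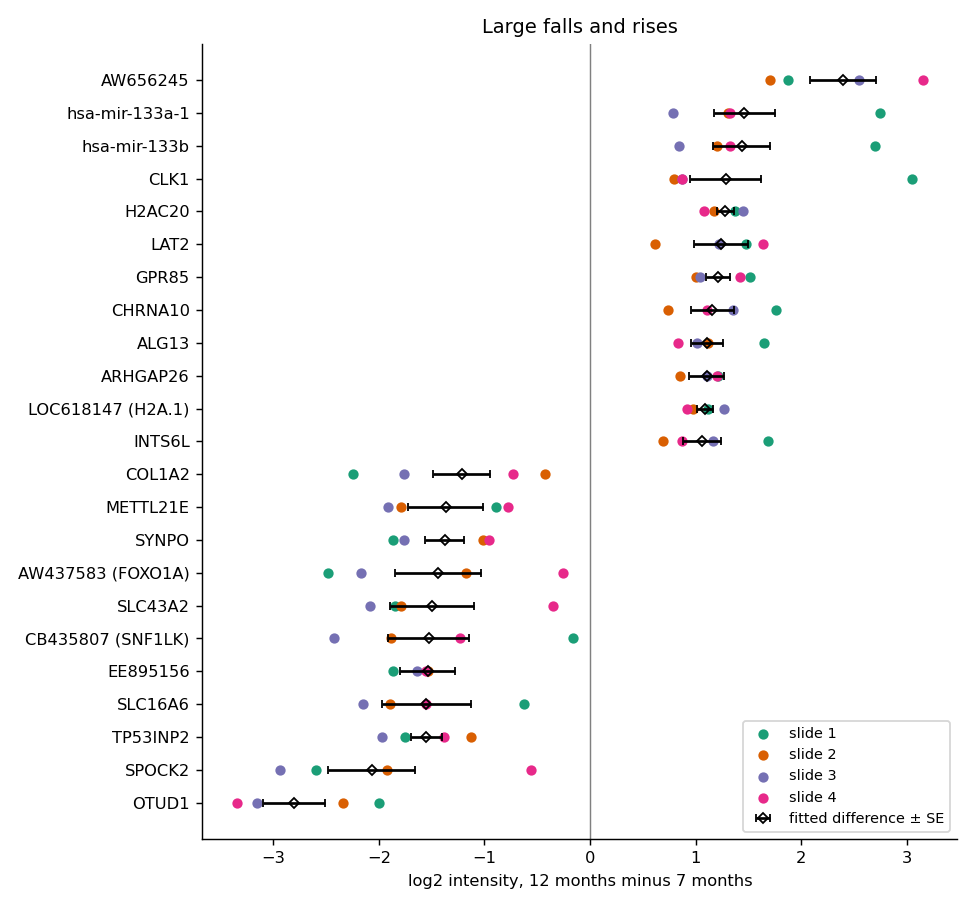
Difference between 12 and 7 months (log2 intensity, x axis) of 11 genes with large falls and the 12 with the largest rises among called genes that moved the same way on all 4 slides. Coloured points are the 4 slides, and open diamonds with bars are the fitted differences with their SE. CLK1, the miR-133 probes, CHRNA10, ALG13, INTS6L, GPR85 and ARHGAP26 have their largest rise on slide 1, whose 7-month array stood apart. AW656245 was not well above background at 7 months, so that only a lower bound (5.0-fold) can be given for its rise.

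Of the rises, AW656245 was the largest. It is an unidentified transcript, known only by its 60-base probe, which is therefore shown together with that of EE895156, the unidentified transcript with the largest fall.
AW656245: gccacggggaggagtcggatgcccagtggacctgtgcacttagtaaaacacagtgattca
EE895156: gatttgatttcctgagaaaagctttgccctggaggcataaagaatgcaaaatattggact
AW656245 was well above background in 0 of 8 channels at 7 months and in 8 of 8 at 12 months, and so passed the filter on dim probes through the 12-month arrays alone. Its measured level was 6.89, 6.94, 6.94 and 6.85 at 7 months and 8.76, 8.64, 9.49 and 10.01 at 12 months, which makes it at least 5.0-fold higher at 12 months. It averaged 7.21 on the 3-month and 6.95 on the 20-month arrays of the same slides, so the 12-month arrays were above all others. EE895156 lay at 11.11, 11.16, 12.16 and 10.95 at 7 months and at 9.25, 9.62, 10.52 and 9.39 at 12 months, and it fell on every slide (difference -1.54, SE 0.26, limma adjusted p = 0.0034). Its average was 12.03 at 3 months and 9.41 at 20 months.

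H2AC20, a histone H2A gene, lay at 12.06, 12.08, 12.09 and 12.28 at 7 months and at 13.43, 13.26, 13.54 and 13.36 at 12 months. The spread within an age was small beside the rise of 1.28 (SE 0.08, 2.44-fold), which had a limma adjusted p of 6.6e-07, and of 4.0e-06 with the biopsy term. LOC618147, which the array describes as similar to histone H2A.1, rose by 1.09 (SE 0.08, limma adjusted p = 3.3e-06), from 12.17 to 12.39 on the 7-month arrays up to 13.21 to 13.44 on the 12-month arrays. The 60-base probes of these 2 genes share no run longer than 5 bases, but histone genes have near-identical copies and the signal of a probe can come from several. Among 21 histone genes tested, a group chosen after its values were seen, the third called was the linker histone H1-12 (0.70, SE 0.21, limma adjusted p = 0.044), and the other 18 had differences between -0.39 and 0.28 (3 with an unadjusted p under 0.05).

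The probes for miR-133b and miR-133a-1, microRNAs of striated muscle, ranked next to each other, and the miR-133b probe is shown because the pair is not independent. Its first 20 bases, in capitals, are the same in both probes. Whether the signal came from the mature microRNA or from a longer transcript was not tested. A later run of 23 bases is shared as well and occurs in 160 of the 211 microRNA probes of the array.
hsa-mir-133b: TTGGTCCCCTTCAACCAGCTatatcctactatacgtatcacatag
The level of the miR-133b probe was 9.26, 10.79, 10.70 and 10.97 at 7 months and 11.96, 11.99, 11.54 and 12.30 at 12 months, a rise of 1.44 (SE 0.27, limma adjusted p = 0.0056). The 7-month array of slide 1 was by far the lowest, and without slide 1 the rise was 1.12 (adjusted p = 0.0013). The miR-133a-1 probe rose by 1.46 (SE 0.29, limma adjusted p = 0.0066) and by 1.14 without slide 1. Both rose in each of the 5 animals, by 0.35 to 1.67. The other 13 microRNA probes that were tested, again a group chosen after seeing the values, had differences between -0.33 and 0.04 and none was called by limma (2 had an unadjusted p under 0.05).

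CLK1, a kinase that phosphorylates splicing factors, lay at 10.07, 12.17, 12.44 and 12.28 and then at 13.12, 12.96, 13.32 and 13.14. Its rise of 1.29 (SE 0.33, limma adjusted p = 0.027) did not pass with the biopsy term (0.058) and was 0.86 without slide 1 (adjusted p = 0.00083). The remaining large rises were those of the adaptor LAT2 (1.24), the receptor GPR85 (1.21), the acetylcholine receptor subunit CHRNA10 (1.16), the glycosyltransferase subunit ALG13 (1.11), the GTPase-activating protein ARHGAP26 (1.11) and INTS6L (1.06), with limma adjusted p-values from 9.5e-05 to 0.0089. Without slide 1 these remaining rises ran from 0.91 for INTS6L to 1.17 for LAT2. GPR85 was above background in only 3 of 8 channels at 7 months, so that its difference rests on dim signals at that age. Of the 23 genes plotted, 17 passed with the biopsy term, 12 passed without animal GW169, and 23 kept their direction without it.

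Connective tissue genes were lower at 12 months. Of 17 fibrillar and basement membrane collagens tested, 7 fell and 0 rose, against 4.19% of all genes that fell (12 and 0 at an unadjusted p under 0.05 in limma). All 17 differences were negative, with a median of -0.53 (-0.80 and 1 positive with median-centred channels). At the level of arrays, the 4 of 12 months lay below the 4 of 7 months without overlap for 7.22% of all genes and above them for 8.44%. Both chains of type I collagen, the main fibre of muscle connective tissue, were among them. COL1A2 lay at 13.86, 12.01, 13.07 and 12.08 at 7 months and at 11.61, 11.58, 11.31 and 11.34 at 12 months (difference -1.21, SE 0.27, limma adjusted p = 0.014). COL1A1 lay at 14.82, 13.49, 14.33 and 13.29 and then at 13.12, 12.92, 12.52 and 12.75 (-1.14, SE 0.27, limma adjusted p = 0.018). In both genes the ages did not overlap, and the 7-month arrays of slides 1 and 3 were higher than those of slides 2 and 4, while the 12-month arrays lay close together. The other called collagens were COL3A1 (-0.78) of reticular fibres, the fibril-nucleating COL5A1 (-0.74), COL5A2 (-0.74) and COL5A3 (-0.42), and the basement membrane collagen COL15A1 (-0.45). With the biopsy term COL1A2, COL5A1 and COL5A3 passed. Without animal GW169, which leaves 1 Wagyu channel at 12 months, the median was -0.55. Without slide 1 there were 7 calls with a median of -0.42. The type IV and VI chains were not called, with adjusted p from 0.052 for COL4A2 (-0.72) to 0.88 for COL4A3 (-0.03).

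Among 38 matrix proteins and enzymes of collagen processing, 14 fell and 0 rose, against 4.19% and 5.12% of all genes. At an unadjusted p under 0.05 in limma 23 fell and 0 rose. In this list 33 differences were negative (median -0.44, and -0.50 without GW169). Lumican (LUM), a proteoglycan that binds collagen fibrils, had close levels at 7 months: 10.71, 10.79, 10.75 and 10.70 at 7 months and 10.14, 10.17, 9.57 and 9.86 at 12 months. Its fall of 0.85 (SE 0.13) had a limma adjusted p of 0.0020, of 0.016 with the biopsy term and of 0.023 without GW169. SERPINH1, the collagen chaperone, fell by 0.84 (SE 0.15, limma adjusted p = 0.0042). LOXL1, a cross-linking oxidase of elastic fibres, fell by 0.77, the microfibril protein MFAP2 fell by 0.61 and PCOLCE, the enhancer of procollagen cleavage, fell by 0.62 (adjusted p = 0.0058, 0.0041 and 0.014). These 5 genes passed with the biopsy term. The other 9 that fell were fibronectin (FN1, -0.85), BGN (-0.83), SPARC (-0.72), MFAP5 (-0.64), PRELP (-0.49), POSTN (-0.48), THBS2 (-0.47), FBN1 (-0.44) and NID2 (-0.40).

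**Figure D2:**
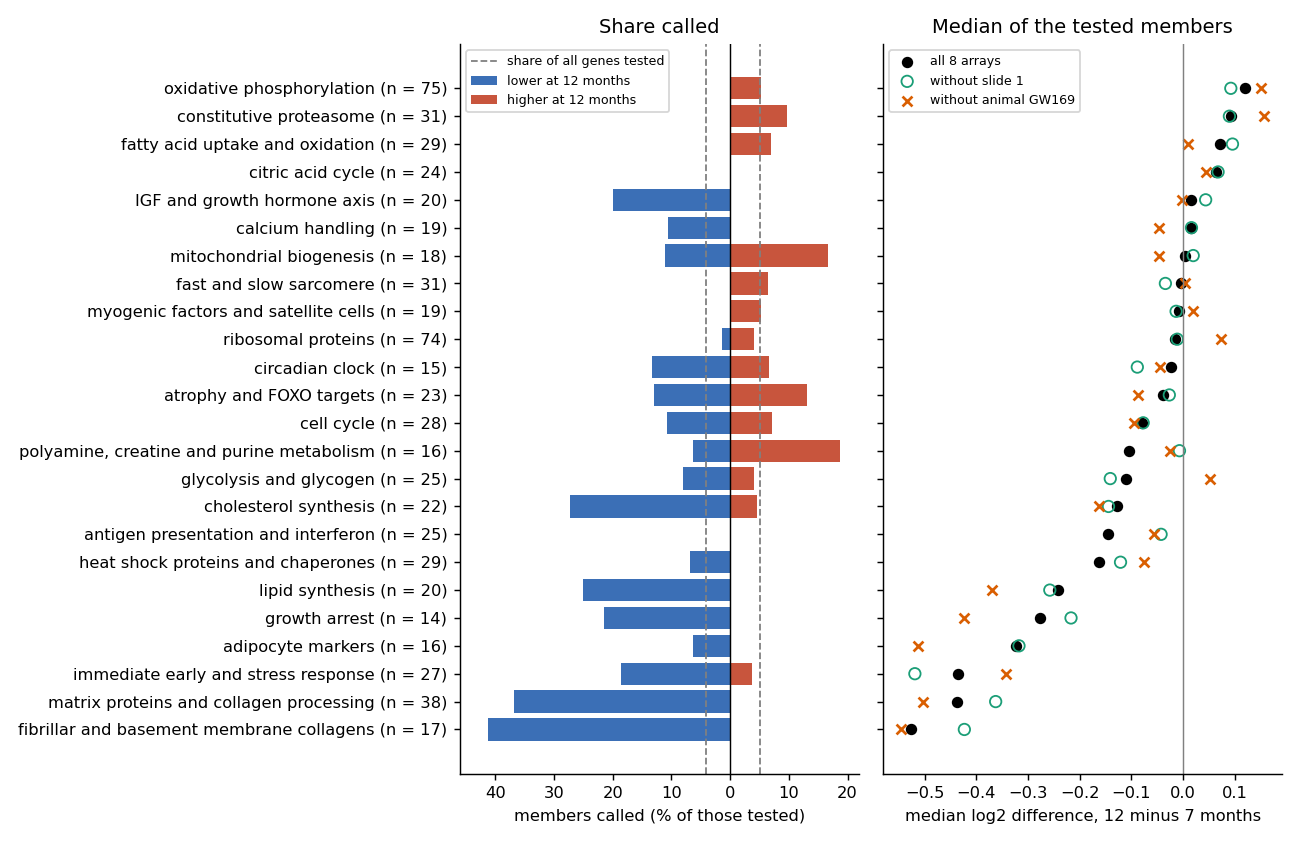
Left, the share of the tested members of each of 24 gene lists that were called lower (blue) or higher (red) at 12 months, with dashed lines at 4.19% and 5.12%, the shares of all genes. Right, the median log2 difference of the tested members with all 8 arrays, without slide 1 and without animal GW169. Collagens and matrix proteins have the largest shares of falls, 7 of 17 and 14 of 38.

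Marker genes of some other cell types moved with these groups. Of all genes 4.19% fell. Of 6 fibroblast markers 4 fell (COL1A1, COL1A2, COL3A1 and LUM, which the lists above also hold), and the mean level of the list was 11.38 to 12.22 at 7 months and 10.90 to 11.20 at 12 months. Of 6 smooth muscle and pericyte markers 2 fell: ACTA2, the actin of smooth muscle, and TAGLN, a protein bound to it. ACTA2 lay at 12.99, 12.85, 12.92 and 12.77 at 7 months and at 12.17, 11.94, 11.72 and 12.07 at 12 months. The 4 arrays of each age were close together and apart from the other age (difference -0.94, SE 0.11, limma adjusted p = 0.00029, and 0.0029 with the biopsy term). TAGLN fell by 0.92 (SE 0.17, limma adjusted p = 0.0053), and the list level was 11.00 to 11.46 and then 10.44 to 10.91. None of 5 adipocyte markers was called by limma (3 had an unadjusted p under 0.05), but all 5 differences were negative (median -0.71, from -0.27 for LIPE to -1.21 for CIDEC and FABP4), and the list level was 8.40 to 10.20 at 7 months and 8.10 to 8.91 at 12 months. Of 4 red blood cell markers, alpha globin (HBA) fell by 0.83 (SE 0.22, limma adjusted p = 0.028, and 0.12 with the biopsy term). None of 6 endothelial, 7 leukocyte, 5 Schwann cell and 3 satellite cell markers was called, and 2 Schwann cell markers alone had an unadjusted p under 0.05. The part of cell composition in the collagen and matrix differences was not tested.

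**Figure D3:**
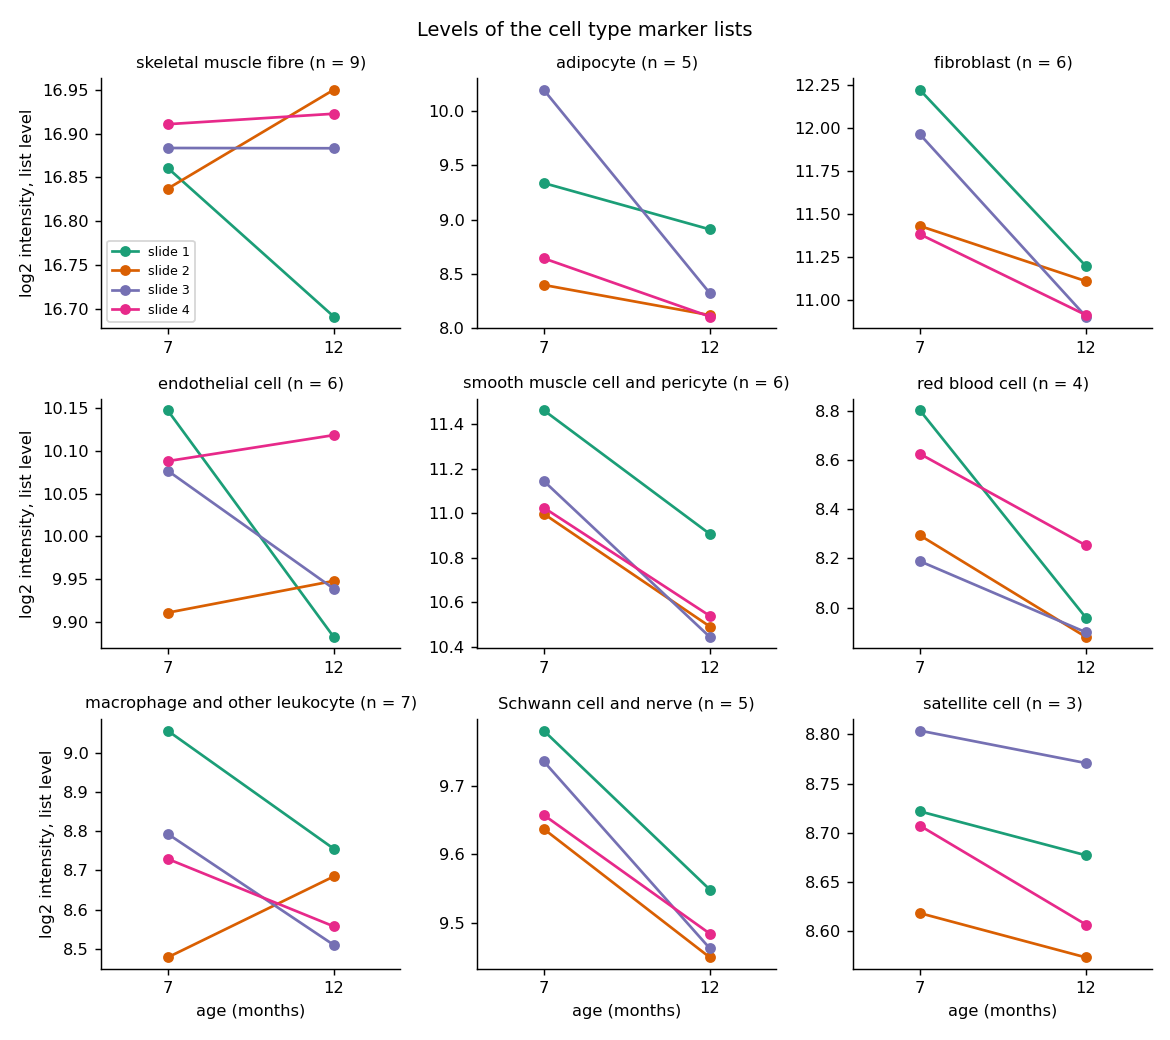
Mean log2 intensity of the tested members of 9 cell type marker lists (y axis, scaled per panel) on the 7-month and 12-month array of each slide, joined by a line. The fibroblast and the smooth muscle and pericyte lists were lower at 12 months on all 4 slides. So were the adipocyte, red blood cell, Schwann cell and satellite cell lists, but not the endothelial and leukocyte lists. The skeletal muscle fibre list ranged from 16.84 to 16.91 at 7 months and from 16.69 to 16.95 at 12 months.

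Genes of lipid synthesis were lower as well. Of 20 tested, 5 fell and 0 rose, against 4.19% and 5.12% of all genes (9 and 1 at an unadjusted p under 0.05 in limma). In this list 17 differences were negative and the median was -0.24. None of the 5 passed with the biopsy term or without slide 1. SCD, the desaturase that makes oleic acid, lay at 10.82, 9.98, 11.16 and 10.15 at 7 months and at 9.82, 9.84, 9.39 and 9.96 at 12 months. Slides 1 and 3 carried most of the difference of -0.82 (SE 0.22, limma adjusted p = 0.031, and 0.077 with the biopsy term). By animal it was -1.88 in GW179, -1.67 in GP201, -0.46 in GW169, -0.30 in GP285 and 0.11 in GP130. FASN, the fatty acid synthase, fell by 0.52 as the mean of 4 probes, whose single differences ran from -0.92 to 0.03. ACACA, which makes malonyl-CoA, fell by 0.37, the desaturase FADS2 fell by 0.29 and the lipogenic protein THRSP fell by 0.57. On the same slides SCD averaged 10.03 at 3 months and 11.33 at 20 months, and FASN 8.68 and 9.30, so the 12-month arrays were below all other ages on average. Of 16 genes in a longer list of adipocyte markers 1 fell, against 4.19% of all genes, and 13 differences were negative. The gene was AGT (-0.43, limma adjusted p = 0.032, and 0.069 with the biopsy term).

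Of 22 genes of cholesterol synthesis and uptake, 6 fell and 1 rose, against 4.19% and 5.12% of all genes. Among the 6 were the sensor protein INSIG1 (-0.96, limma adjusted p = 0.0089), the epoxidase SQLE (-0.91, 0.031), the synthase HMGCS1 (-0.51, 0.047) and the transcription factor SREBF2 (-0.52, 0.026). None of these 4 passed with the biopsy term, but 1 of the 6 falls did. Without GW169, 1 fall and 1 rise of the list were called. FDFT1, the squalene synthase, went the other way. It lay at 12.77, 12.73, 12.78 and 13.03 at 7 months and at 13.89, 13.55, 13.96 and 13.69 at 12 months, a rise of 0.96 (SE 0.12, limma adjusted p = 0.00033, and 0.0028 with the biopsy term) seen in all 5 animals.

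**Figure D4:**
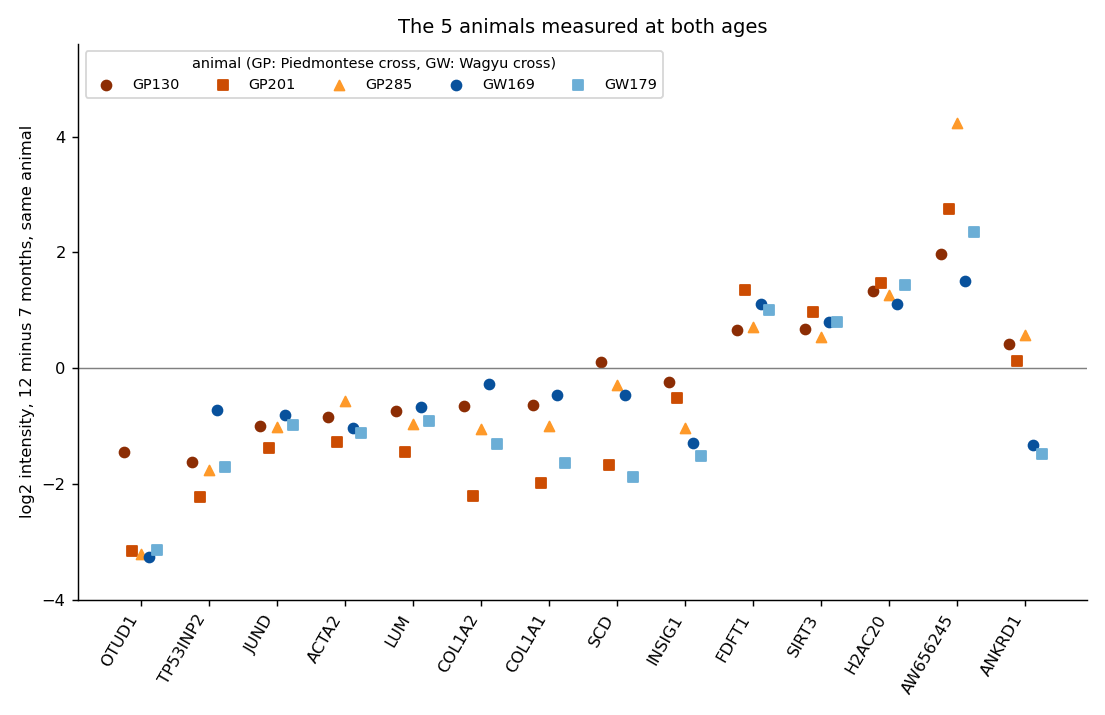
Difference between 12 and 7 months (log2 intensity, y axis) within each of the 5 animals measured at both ages, for 14 genes, after removal of the dye effect of each gene. The histone gene H2AC20 differs little among animals (1.10 to 1.47), SCD differs widely, and ANKRD1 is lower at 12 months in both Wagyu crosses and higher in the 3 Piedmontese crosses.

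Early response genes, which cells switch on within minutes of a stimulus, were also lower. Of 27 tested, 5 fell and 1 rose, against 4.19% and 5.12% of all genes (median -0.43). JUND, a subunit of the AP-1 factor, lay at 13.59, 13.23, 13.60 and 13.09 at 7 months and at 12.41, 12.32, 12.42 and 12.22 at 12 months. The fall of 1.03 (SE 0.12) had a limma adjusted p of 0.00022, and of 0.0028 with the biopsy term, and the differences of the 5 animals ran from -1.38 to -0.80. The nuclear receptor NR4A1 fell by 0.95, JUN fell by 0.81, MYC fell by 0.88 and GADD45B fell by 0.71 (adjusted p = 0.0021, 0.016, 0.017 and 0.047), whereas IER3 rose by 0.93 (0.018). With the biopsy term 3 falls (JUND, NR4A1 and JUN) and 0 rises passed, with IER3 at 0.054, and without GW169 1 fall and 0 rises passed. Without slide 1, 10 members fell and 1 rose. Of 14 genes in the growth arrest list, which here includes a cyclin, 3 fell, against 4.19% of all genes. They were the cell cycle inhibitor CDKN1A (-0.53), cyclin D1 (CCND1, -0.62) and GADD45B, which both lists hold. On slide 1 CDKN1A (10.65 and then 10.83) and GADD45B (9.29 and then 9.83) did not fall. None of the 3 passed with the biopsy term.

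In the growth hormone and IGF list, which here includes paternally expressed growth genes, 4 of 20 fell and 0 rose. Of all genes 4.19% fell and 5.12% rose. At an unadjusted p under 0.05 in limma 6 of the list fell and 2 rose, with a median of 0.02 (-0.16 with median-centred channels). DLK1, a growth regulator that is imprinted, lay at 15.51, 15.40, 15.24 and 15.35 at 7 months and at 14.84, 15.07, 14.94 and 14.83 at 12 months. The ages were separate by a small step of -0.45 (SE 0.08, limma adjusted p = 0.0052, and 0.021 with the biopsy term). MEST, also imprinted, lay at 9.69, 9.07, 9.49 and 8.93 and then at 8.65, 8.56, 8.23 and 8.44 (-0.86, SE 0.16, limma adjusted p = 0.0057). The binding proteins IGFBP6 and IGFBP3 fell by 0.63 and by 0.53 (adjusted p = 0.016 and 0.028) and did not pass with the biopsy term (0.054 and 0.12).

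The direction of mitochondrial genes hung on the scaling, and other lists shifted downward with median-centred channels too. Their medians were then -0.31 for sarcomere genes and -0.27 for ribosomal proteins, for example. Of 75 oxidative phosphorylation genes, 4 rose and 0 fell, near the 5.12% of all genes (19 and 1 at an unadjusted p under 0.05), and 57 differences were positive (median 0.12), whereas with median-centred channels 11 were positive (median -0.16). The 4 were the complex I subunit NDUFB3 (0.42), the cytochrome oxidase subunits COX5B (0.32) and COX8B (0.31) and the ATP synthase subunit ATP5F1C (0.26, but -0.02 with median-centred channels), and none passed with the biopsy term. Among 18 regulators of mitochondrial biogenesis, 3 rose and 2 fell, against 5.12% and 4.19% of all genes. The mitochondrial deacetylase SIRT3 lay at 12.32, 12.49, 12.24 and 12.73 at 7 months and at 13.11, 13.20, 13.12 and 13.34 at 12 months. All 4 later arrays were above all earlier ones (0.75, SE 0.10, limma adjusted p = 0.00060, and 0.0056 with the biopsy term). GABPA, a factor that binds promoters of respiratory genes, rose by 0.37 and the mitochondrial DNA-binding protein TFAM by 0.25 (adjusted p = 0.0018 and 0.025), while the nuclear receptor ESRRA and the kinase subunit PRKAA1 fell by 0.27 and by 0.30 (0.021 and 0.049). With the biopsy term SIRT3 and GABPA passed, and TFAM, ESRRA and PRKAA1 did not (0.11, 0.073 and 0.10). In fatty acid oxidation 2 of 29 rose, near the 5.12% of all genes: DECR1 (0.57, limma adjusted p = 0.0051) and HADHB (0.29, 0.025). HADHB did not pass with the biopsy term (0.086). In the citric acid cycle 0 of 24 was called by limma (4 had an unadjusted p under 0.05).

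**Figure D5:**
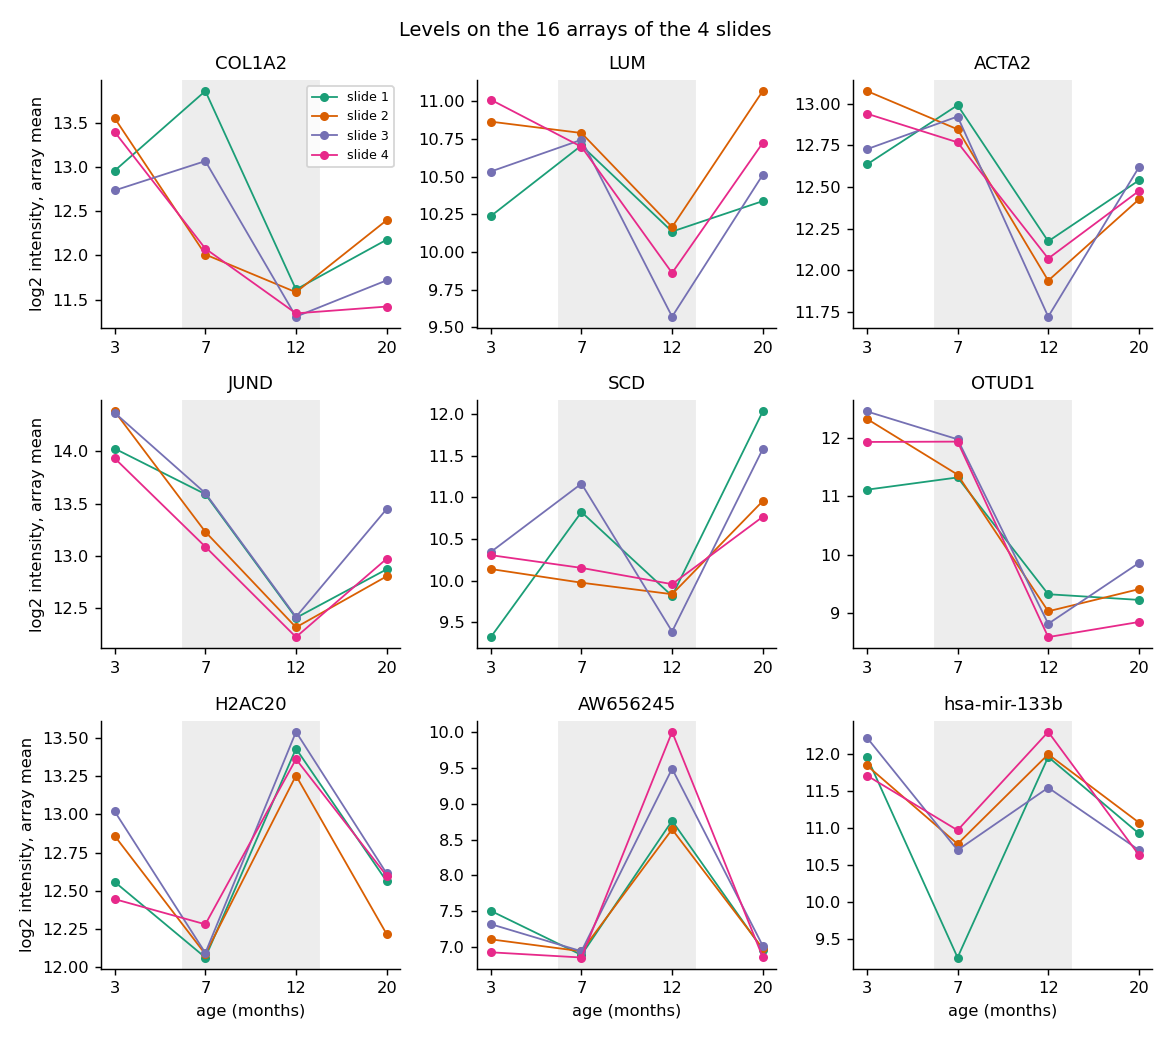
Log2 intensity (array mean, y axis scaled per panel) of 9 genes on the 16 arrays of the 4 slides at 3, 7, 12 and 20 months, joined by slide. The ages compared are shaded, and the outer ages are a description with no test. COL1A2, LUM, ACTA2, JUND, SCD and OTUD1 have their lowest averages at 12 months, and H2AC20 and AW656245 their highest. The miR-133b probe averages 11.93, 10.43 and 11.95 at 3, 7 and 12 months. The 7-month array of slide 1 is low for miR-133b.

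Genes of the contractile apparatus were called about as often as all genes. Of 31 sarcomere genes 2 rose, near the 5.12% of all genes: TPM3, the slow tropomyosin, and MYH4, the fastest myosin heavy chain. TPM3 lay at 12.20, 11.53, 11.85 and 12.01 at 7 months and at 12.50, 12.83, 12.83 and 12.94 at 12 months, without overlap (0.95, SE 0.17, limma adjusted p = 0.0049, and 0.034 with the biopsy term). MYH4 rose by 0.41 (limma adjusted p = 0.047) and did not pass with the biopsy term (0.17). Of 19 calcium handling genes 2 fell, against 4.19% of all genes. CACNA1S, the voltage sensor of the T-tubule, fell by 0.66 and the junctional protein JPH2 by 0.45 (limma adjusted p = 0.0081 and 0.018). JPH2 did not pass with the biopsy term (0.065). Of 19 myogenic and satellite cell genes 1 rose, near the 5.12% of all genes. It was CHRND, the acetylcholine receptor delta subunit (0.67, limma adjusted p = 0.034, and 0.094 with the biopsy term).

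Of 25 glycolysis and glycogen genes 1 rose and 2 fell, against 5.12% and 4.19% of all genes. The branching enzyme GBE1 rose by 0.44, while the glycogen synthase GYS1 and the phosphorylase kinase subunit PHKG1 fell by 0.25 and by 0.69 (limma adjusted p = 0.0034, 0.012 and 0.018). PHKG1 did not pass with the biopsy term (0.058). The probes of GBE1 disagreed in size (0.17 and 0.71), and so did those of GYS1 (-0.49 and -0.01). Of 16 genes of polyamine, creatine and purine metabolism 3 rose and 1 fell, against 5.12% and 4.19% of all genes (median -0.10). GAMT, which makes creatine, fell by 0.52 (limma adjusted p = 0.0025). The AMP deaminases AMPD1 of muscle and AMPD3 rose by 0.37 and by 0.76, and the spermine oxidase SMOX by 0.21 (adjusted p = 0.015, 0.013 and 0.046). GAMT passed with the biopsy term, and the 3 rises did not (0.060, 0.069 and 0.14).

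Of 23 atrophy and FOXO genes 3 rose and 3 fell, against 5.12% and 4.19% of all genes. The autophagosome protein MAP1LC3B lay at 13.58, 13.77, 13.52 and 13.74 at 7 months and at 14.38, 14.18, 14.14 and 14.13 at 12 months (0.53, SE 0.07, limma adjusted p = 0.00093). The translation repressor EIF4EBP1 rose by 0.80 and the mitophagy protein BNIP3 by 0.37 (adjusted p = 0.0094 and 0.042), while the ubiquitin ligase TRIM63 fell by 0.49, glutamine synthetase (GLUL) by 0.68 and the clock gene PER1 by 0.95 (0.010, 0.0035 and 0.0089). Of these 6, BNIP3 alone did not pass with the biopsy term (0.16). PER1 lay at 15.12, 16.06, 16.50 and 15.89 at 7 months and at 15.16, 15.11, 14.84 and 15.02 at 12 months, so slide 1 showed no fall. Of 15 clock genes 1 rose and 2 fell, against 5.12% and 4.19% of all genes. Besides the fall of PER1, CLOCK fell by 0.44, and RORA rose by 0.35 (limma adjusted p = 0.018 and 0.0081). CLOCK did not pass with the biopsy term (0.061). Of 31 subunits of the proteasome 3 rose, PSMB3 (0.39), PSMB4 (0.45) and PSMD13 (0.34), against 5.12% of all genes. Positive differences numbered 23, but 4 with median-centred channels. All 3 passed with the biopsy term. Of 74 ribosomal protein genes 3 rose and 1 fell, below the 5.12% and 4.19% of all genes. The median was -0.01 (-0.27 with median-centred channels). Among the rises were RPS27 (0.70) and RPL13A (0.67), and RPL3 fell (-0.43, limma adjusted p = 0.073 with the biopsy term). Pseudogenes of this family can share a probe. Of 29 chaperones HSPA8 (-0.56) and CANX (-0.30) fell, against 4.19% of all genes, and neither passed with the biopsy term (0.058 and 0.10). Of 28 cell cycle genes 3 fell and 2 rose, against 4.19% and 5.12% of all genes. PRC1 (-0.60), CKS2 (-0.43) and RRM2 (-0.32) fell and the licensing genes MCM2 (0.31) and MCM4 (0.30) rose. With the biopsy term PRC1 alone passed. RRM2 was above background in 3 of 8 channels at 12 months, so that its difference rests on dim signals at that age. None of 25 antigen presentation and interferon genes was called (3 had an unadjusted p under 0.05).

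The crosses were compared last, as the change in the Piedmontese cross minus the change in the Wagyu cross. This difference was called for 605 genes (4.43%) with array and animal as random terms, but for 1 gene (0.00732%) with the biopsy term. In a separate fit of only the 5 animals of both ages, paired as a replicate block, 1 gene was called. The Wagyu cross at 12 months was 2 animals, and without GW169 that cross was GW179 on 1 array. The gene called with the biopsy term was ANKRD1, a stretch-responsive protein of the sarcomere. It was 0.41, 0.13 and 0.57 higher at 12 months in GP130, GP201 and GP285 and 1.32 and 1.49 lower in GW169 and GW179, and the difference between crosses was 1.77 (SE 0.16, limma adjusted p = 0.00020, and 0.027 with the biopsy term). The next by unadjusted p were ISYNA1 (-0.95), FGF18 (-1.07), DYNLL1 (-1.22) and the creatine kinase CKM (-1.05), with limma adjusted p of 0.0017 to 0.011, and of 0.18 to 0.34 with the biopsy term. In these 4 genes each Piedmontese cross was lower and each Wagyu cross higher at 12 months than at 7 months.

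The 6 gene modules that the study built on these samples are not independent evidence. Of the fat module 2 of 19 fell, of the muscle and glycolysis module 2 of 40 and of the cell cycle module 1 of 27, while 1 of 32 mitochondrial and 1 of 22 ribosomal genes rose and 0 of 20 immune genes was called (2 had an unadjusted p under 0.05). Except for the fat module these counts were near or below the shares of all genes (4.19% lower and 5.12% higher), and with the biopsy term 1 of the 7 calls, in the ribosome module, passed. The medians ran from -0.29 for fat to 0.04 for mitochondria (-0.23 with median-centred channels).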

How the data were processed

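Total RNA (TRIzol) of muscle biopsies was amplified, labelled with Cy3 or Cy5 and scanned by the authors, who deposited, per the file headers, the raw mean intensity, the median local background and quality flags of every spot from Agilent Feature Extraction (version 9.5.1 in the processing notes, 9.5.3.1 in the headers). No genome build was used here. The deposited log ratios and series table were not used. Intensities of the 16 arrays of the 4 slides were background-corrected by normexp (offset 50), normalised by loess within and Aquantile between arrays in limma 3.58.1 (R 4.3.3), and log2 was taken. Control and outlier-flagged spots were left out, and spots of a probe and probes of a gene were averaged. Of the 16 channels at 7 and 12 months, 8 or more had to be flagged as well above background for a probe to be kept: 14637 of 21475 passed and stand for 13670 genes, 900 of them with more than 1 probe. Of all probes, 16752 matched a gene of the RefSeq table (assembly ARS-UCD2.0, names only), and others kept the array's name.

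Groups, animals and dyes came from the labels. limma (lmFit, eBayes, two-sided, Benjamini-Hochberg, threshold 0.05) was fitted to the 16 channels by generalised least squares with the 4 combinations of age and cross and dye as fixed terms and array and animal as random terms (estimated correlations 0.30 and 0.33, residual degrees of freedom 11). Animals were paired through their codes in the labels. Array numbers are only names. The biopsy terms were added after seeing the data. Biopsies of an animal at 1 age on several arrays are not separate samples. The fit was also run on data simulated from its own array and animal terms. These data held no biopsy effect, so that run cannot test the sharing of a biopsy among arrays. Named genes were the 12 largest rises and falls among called genes that moved alike on all slides, up to 4 called members of each list by adjusted p, cell type markers and the 5 genes with the smallest p of the interaction of age and cross; other called list members were added, and 4 genes that met the rule are not reported here. The members and lists were chosen with earlier results of these data known. Alternatives changed background, signal, normalization, filter, probe choice, random terms, replicates and samples. The number of arrays limits the precision.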

Additional observations from a re-analysis of the deposited data

Results flagged for a closer look

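For the 105 named genes, the average level of both channels was compared among the 4 arrays of each age, which made 210 groups of 4. In 16 of them 1 array lay far from the other 3, by Dixon's ratio, and chance alone flags about 1 group in 20. Of these 16 arrays, 5 were the 7-month array of slide 1. On it hsa-mir-133a-1 was lowest at 10.19 (other arrays 11.75 to 11.97), as were hsa-mir-133b at 9.26 (10.70 to 10.97), CLK1 at 10.07 (12.17 to 12.44) and INTS6L at 7.98 (8.81 to 8.92), and CKM was highest at 16.93 (16.67 to 16.70). On the 7-month array of slide 4, H2AC20 was highest at 12.28 (12.06 to 12.09), and so was FDFT1 at 13.03 (12.73 to 12.78). INSIG1 was lowest on slide 2 at 7 months at 9.22 (9.61 to 9.63), and MYH1 was highest on slide 3 at 17.13 (17.06 to 17.07).

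At 12 months, ALG13 was highest on slide 2 at 9.49 (9.06 to 9.12) and PSMB3 was lowest there at 13.30 (13.54 to 13.55). On slide 3, FADS2 was lowest at 10.46 (10.64 to 10.67), EIF4EBP1 was lowest at 12.85 (13.53 to 13.66) and NR4A1 was highest at 13.69 (13.42 to 13.46). On slide 1, MB was lowest at 17.38 (17.72 to 17.76), and so was ISYNA1 at 10.27 (10.38 to 10.40).

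The change with age differed between the crosses for 14 named genes by the interaction in limma. The difference of the log2 changes, Piedmontese cross minus Wagyu cross, was 1.77 for ANKRD1 (adjusted p = 0.000202 in limma), which alone of the 14 also passed with the biopsy term (adjusted p = 0.027). It was above 0 for ARHGAP26 (1.10), CDKN1A (0.90) and GLUL (0.66). It was below 0 for DYNLL1 (-1.22), COL3A1 (-1.10), FGF18 (-1.07), CKM (-1.05), ISYNA1 (-0.95), TP53INP2 (-0.81), IGFBP6 (-0.73), SERPINH1 (-0.72), ESRRA (-0.44) and COL5A3 (-0.39). With the biopsy term the adjusted p of these 13 lay between 0.179 (ISYNA1) and 0.470 (SERPINH1).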

How the results depend on the processing

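The counts below are of genes called changed with age (higher, lower) and, last, of genes whose change differed between the crosses, 1273 (700, 573) and 605 as reported. Median centring of channels gave 0 (0, 0) and 0, and turned ATP5F1C to -0.019. With array alone as the random term there were 736 (412, 324) and 2, with animal alone 2641 (1433, 1208) and 2, with array and biopsy, added after seeing the data, 480 (273, 207) and 1, all 480 among the reported calls, and without animal GW169 179 (93, 86) and 0. Taking 1 value per array with the slide as replicate block gave 243 (143, 100) and 3. The slide as a fixed replicate block gave 1300 and 4, and animals present at both ages, paired with the animal as replicate block, gave 1184 and 1. The interaction count was also 929 with quantile normalization, 115 without the filter, 55 with all 16 arrays and 95 with array, animal and biopsy. Leaving out arrays gave 192 to 1639 genes (107 to 899 higher, 81 to 740 lower) and 0 (without slide 2) to 587 for the interaction, with 5 or fewer also without the 7-month array of slide 2 or 3, the 12-month array of slide 4 or slide 4. The count was 563 without the 7-month array of slide 3, 633, 647 and 384 without the 12-month arrays of slides 1, 3 and 4, and 744, 202 and 192 without slides 2, 3 and 4. The other settings gave 950 to 1638 genes. The cause of these differences was not tested. Of the 92 called genes that the rule named for a change with age, 91 kept their direction under every setting. Of these 92, 50 passed with array and biopsy and 33 with 1 value per array. Called list members added beyond the rule, and ANKRD1, named for its interaction, were not part of this count.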
